A study of Mus musculus with 26 samples.

Results

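Oxidative phosphorylation genes were examined in RNA sequencing of dorsal root ganglia (DRG) of mice, which hold the cell bodies of sensory neurons next to the spinal cord. The genes were chosen by symbol: subunits and assembly factors of the respiratory complexes and ATP synthase whose names start with Nduf, Sdh, Uqcr, Uqcc, Cox4 to Cox8 or Atp5, cytochrome c (Cycs), and the mRNAs encoded by mitochondrial DNA. Of 55401 counted genes, 106 matched: 93 nuclear genes and 13 mitochondrial ones. Of the 93 nuclear genes, 89 are annotated as protein coding and 4 (Ndufs6b, Cox6c2, Ndufb4c and Ndufa11b) as processed pseudogenes, and 8 genes whose names carry the pseudogene ending -ps were left out.

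The study deleted the aryl hydrocarbon receptor gene (Ahr), which encodes a ligand-activated transcription factor, in neurons, and asked how ganglia with and without it respond to nerve injury. Conditional knockout (cKO) mice were labelled Ahr f/f with a Thy1-CRE(ERT2/EYFP) transgene, a tamoxifen-inducible Cre recombinase driven by the Thy1 promoter, which is active in neurons. Control mice were labelled Ahr fl/fl, fl/+ or f/+, with no Cre (f and fl are both taken as the floxed allele). Mice of the naive and crush groups, cKO and control alike, were given tamoxifen i.p. when 28 weeks old (100 mg/kg daily for 5 days), and L4 to L6 ganglia were taken 5 weeks later, from naive mice or 1 day after a sciatic nerve crush (3 mice per genotype in each). Controls 1 and 2 of these groups were fl/+ and control 3 was fl/fl. A supplemental set held ganglia from the operated and the other side of 2 mice per genotype 1 day after sham surgery, and semi-purified DRG neurons 24 hours after seeding (3 libraries per genotype). The sham controls were 1 f/+ and 1 fl/fl mouse, the neuron controls were fl/fl, and no tamoxifen is stated for the supplemental mice. All sham mice were labelled male, all naive mice and neuron donors female, and crush control 3 and crush cKO 3 male among otherwise female crush mice. Whole ganglia hold neurons, satellite glia, Schwann cells and vessels, so that fewer cells of a type and less RNA per cell cannot be told apart in any value below.

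Oxidative phosphorylation couples the transfer of electrons from nutrients to oxygen with the making of ATP in the inner membrane of mitochondria. Complex I (NADH dehydrogenase, the Nduf and mt-Nd genes) and complex II (succinate dehydrogenase, Sdha to Sdhd) feed electrons through complex III (Uqcr genes and mt-Cytb) and cytochrome c to complex IV (cytochrome c oxidase, Cox genes), and complex V (ATP synthase, Atp5 and mt-Atp genes) uses the resulting proton gradient. Most subunits are encoded in the nucleus and imported, and a core set is encoded by mitochondrial DNA. Sensory neurons carry long axons whose upkeep and regrowth depend on mitochondrial ATP.

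Grouped by symbol, the 93 nuclear genes comprised 40 Nduf genes (complex I below), 4 of complex II, 8 of complex III, 3 assembly factors of complex III (Uqcc1 to Uqcc3), 19 of complex IV, 18 of complex V, and Cycs. The Nduf genes include Ndufa4, which is known as a subunit of complex IV, its relative Ndufa4l2, and 3 of the processed pseudogenes (Ndufs6b, Ndufb4c and Ndufa11b). The 13 mitochondrial mRNAs comprised 7 of complex I, 1 of complex III, 3 of complex IV and 2 of complex V. The 12 naive and crush libraries held 20169388 to 23540375 counts each, the 8 sham libraries 39306414 to 58751270, and the 6 neuron libraries 25299938 to 88180611, with neuron control 1 the shallowest. In 2 crush libraries (control 3 and cKO 2) the sex read from Xist and Y-linked transcripts differed from the label. By transcripts all naive and crushed controls were female, whereas the crushed cKO were 1 female and 2 males (cKO 2 and 3) against 3 female naive cKO. Counts of Ahr were 18.9, 23.8 and 23.8 CPM (counts divided by library size, adjusted for library composition) in the naive controls and 24.2, 28.1 and 22.7 CPM in the naive cKO. These counts are taken to cover the whole gene, including parts outside a floxed segment, and do not check the deletion. Thy1, whose promoter drives the transgene, was at 707 to 807 CPM in the naive controls and at 1252 to 1416 CPM in the naive cKO.

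The 13 mitochondrial mRNAs fell into high and low counts in every library. In the naive controls, mt-Co1 (the catalytic subunit of complex IV) had 4157, 3948 and 3984 CPM and mt-Cytb (cytochrome b) had 2734, 2605 and 2649.7 CPM. By contrast, mt-Co2, another core subunit of complex IV, had 18.8, 14.2 and 12.8 CPM, and mt-Atp6 (the proton channel subunit of complex V) had 10.3, 8.17 and 6.24 CPM. Together 7 mRNAs (mt-Nd1, mt-Nd2, mt-Nd4, mt-Nd5, mt-Nd6, mt-Cytb and mt-Co1) were far above the other 6 (mt-Nd3, mt-Nd4l, mt-Co2, mt-Co3, mt-Atp6 and mt-Atp8). Of the low 6, 5 shared 98% or more of their 50-base stretches with nuclear copies in the annotated transcripts, and mt-Atp8 shared none. Only annotated transcripts were searched, so a copy of mt-Atp8 elsewhere in the genome would have been missed. Of the high 7, mt-Co1 shared 51.1% and mt-Nd4 62.2%. The first 60 coding bases of mt-Co2 and mt-Atp6, shown because reads from them cannot be assigned to one place, are printed with their copies on chromosome 1 of GRCm38 (Gm28661 at 24614885 to 24615565 and Gm10925 at 24613974 to 24614651). No base differs, so no letter is in capitals.
mt-Co2: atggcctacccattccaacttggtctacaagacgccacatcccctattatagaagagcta
Gm28661: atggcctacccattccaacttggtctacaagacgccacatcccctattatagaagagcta
mt-Atp6: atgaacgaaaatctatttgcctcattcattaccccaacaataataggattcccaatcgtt
Gm10925: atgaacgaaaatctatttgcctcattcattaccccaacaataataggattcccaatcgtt

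Of the 93 nuclear genes, 42 shared at least 1 stretch of 50 bases with another annotated transcript, mostly a processed pseudogene. Atp5g2 (a ring subunit of complex V), Cox7c (a small subunit of complex IV) and Cox6c (likewise) are shown beside their closest annotated copy, 60 coding bases each, with differing bases in capitals. Gm10175 lies on chromosome 7 (23946646 to 23947290), Gm10012 on chromosome 17 (25901856 to 25902227) and Cox6c2, a member in its own right, on chromosome 12 (56373593 to 56373823). Within these stretches 0, 1 and 2 bases differ.
Atp5g2: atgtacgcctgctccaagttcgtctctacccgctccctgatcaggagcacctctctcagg
Gm10175: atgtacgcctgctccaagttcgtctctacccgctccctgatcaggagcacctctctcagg
Cox7c: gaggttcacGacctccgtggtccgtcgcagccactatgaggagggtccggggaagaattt
Gm10012: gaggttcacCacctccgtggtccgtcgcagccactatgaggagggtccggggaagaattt
Cox6c: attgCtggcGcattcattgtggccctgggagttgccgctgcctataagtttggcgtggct
Cox6c2: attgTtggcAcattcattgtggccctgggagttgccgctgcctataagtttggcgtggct

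Levels of such genes can therefore depend on how reads with several matches were treated. That treatment is not given in the sources used here, and its part was not tested. Atp5g2 was at 0.989, 0.632 and 0.702 CPM in the naive controls and at 48.2 and 53 CPM in the sham controls on the other side, although both are whole ganglia. Cox6c2, the copy, went the other way, with 40.7, 30.6 and 36.2 CPM in the naive controls and 2.7 and 2.58 CPM in the sham controls. The naive and crush libraries were deposited in 1 count table and the sham and neuron libraries in another. Between naive and contralateral sham control ganglia, 82 of 91 tested nuclear genes were called higher in the sham table (adjusted p under 0.05, edgeR's quasi-likelihood test) and 7 lower, where 32% of all tested genes were called higher and 32.6% lower. The median log2 fold change was 1.30. In cKO ganglia 81 nuclear genes were called higher and 7 lower, where 31.3% and 30.6% of all tested genes were. Of the 13 mitochondrial mRNAs, 4 were called higher and 8 lower in controls, and 5 and 7 in cKO. The higher calls of smallest p in controls were Atp5l (log2 5.63), Atp5g2 (6.19), Cox5b (3.62), Cox7c (3.53) and Cycs (2.31), and the lower ones Cox6c2 (-3.60), Ndufs6b (-2.61), mt-Nd2 (-1.69), mt-Nd1 (-1.45) and mt-Nd4 (-1.08). In cKO they were Atp5l (5.89), Atp5g2 (6.54), Cox5b (3.81), Cox7c (3.93) and Ndufb4 (3.93), and Cox6c2 (-3.05), Ndufs6b (-2.21), mt-Nd2 (-0.90), Uqcrfs1 (-0.35) and mt-Nd1 (-0.66). In controls the median was 1.25 for the 49 protein-coding nuclear genes with no shared 50-base stretch, a 2.37-fold median. It was 1.34 for the 26 with over 0 to 20% shared, a 2.53-fold median. For the 12 with more than 20% shared it was 2.47, a 5.53-fold median. Sex, sham surgery and table differ together between these groups and cannot be told apart. Levels are therefore compared below within a table unless stated.

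Within the naive controls, the nuclear genes with the highest counts per kilobase of exon were Cox8a and Cox6a1, both small subunits of complex IV, at 289.5 and 234 CPM per exon kilobase. Atp5a1 and Atp5b, which form the catalytic head of ATP synthase, followed at 156 and 134. In the sham controls on the other side the order at the top was Cox6a1 (409), Cox8a (352) and Cox6b1 (273). The counts are taken to include introns, so division by exon length is approximate. At the low end, the tissue-restricted isoforms of complex IV stayed near the floor: Cox4i2 had 0.315, 0.948 and 0.826 CPM in the naive controls against 72.9, 66.4 and 65.1 CPM for Cox4i1, the general isoform. Reads of Cox4i1 overlap another counted gene (Gm20388), so that its value is uncertain. Cox6b2 was at 1.71, 1.04 and 1.36 CPM against 57.9, 53.6 and 46.9 for Cox6b1. Cox7b2 was below 0.5 CPM in all 26 libraries and Cox8c had no count in any of them. Cox6a1 had 173, 164 and 155 CPM and Cox6a2, its muscle form, at most 0.494 CPM. Cox7a2 had 55.3, 43.9 and 43.3 CPM, Cox7a2l 166, 151 and 150.2 CPM, and Cox7a1 at most 0.629 CPM. Cox8a had 192, 173 and 172 CPM and Cox8b at most 1.21 CPM. Ndufa4 was at 119, 87.6 and 89.4 CPM and its hypoxia-linked relative Ndufa4l2 at 1.17, 0.497 and 1.45 CPM. Of the 3 genes for the same ring subunit of ATP synthase, Atp5g3 had 140.1, 142 and 130.3 CPM and Atp5g1 63.1, 67.1 and 64.1 CPM, with Atp5g2 as given above.

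**Figure D1:**
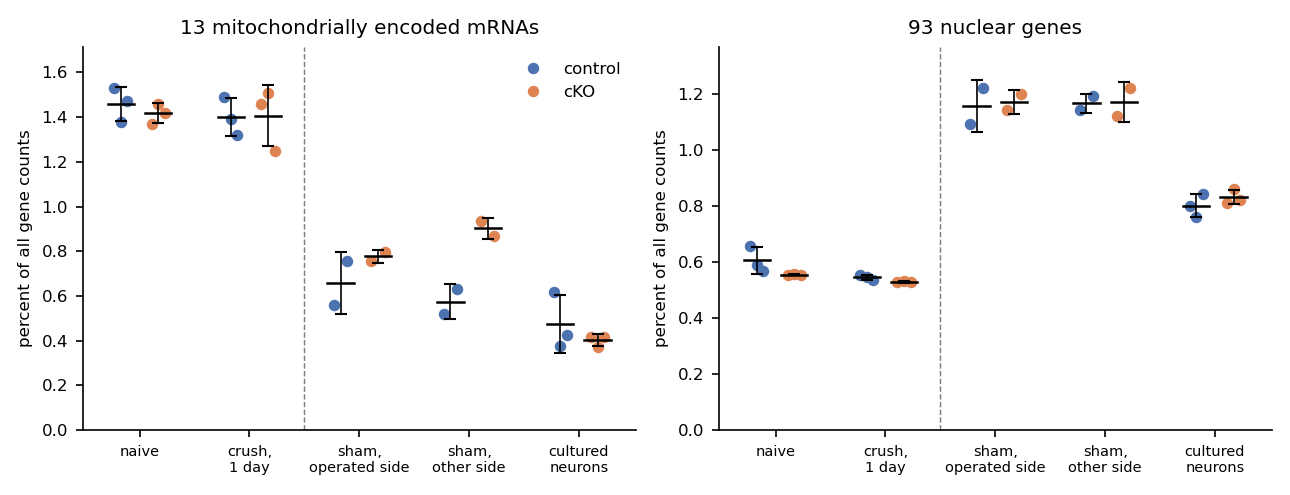
Share of all gene counts taken by the 13 mitochondrial mRNAs (left) and the 93 nuclear genes (right), in percent. Points are libraries, bars the mean and SD (n = 3, or 2 for sham), and the dashed line separates the 2 deposited tables; on the other side of sham mice the cKO libraries (0.936 and 0.868) lie above the controls (0.519 and 0.629).

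Injury comparisons ask how the ganglia change 1 day after crush. In control mice, 6 of the 89 tested nuclear genes fell after crush and none rose, where 8.73% of all 21261 tested genes fell and 12.9% rose. The members' share, 6 of 89, is close to the background. All 6 encode subunits of complex I. The median over the nuclear genes was -0.12 (log2), against -0.02 over all tested genes, and 76 of 89 were below 0. In 29 of 89 every crushed control lay below every naive one, against 17.1% of all genes, and in none of the 89 above, against 21.1%.

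Ndufs7 carries an iron-sulfur cluster of complex I that passes electrons towards ubiquinone (chromosome 10, 80249121 to 80256794). It had 30.2, 28.9 and 27.2 CPM in the naive controls and 24.8, 23.8 and 24.7 CPM after crush. The groups did not overlap, and the log2 fold change was -0.24 (SE 0.064, adjusted p = 0.0207). Ndufa11, an accessory subunit in the membrane arm (chromosome 17, 56717767 to 56722141), had 29.7, 30.1 and 26.4 CPM in naive and 23.8, 25 and 25 CPM in crushed controls. The lowest naive library stood above the highest crush library, with a log2 fold change of -0.22 (SE 0.065, adjusted p = 0.0287). Ndufa11 shares its position with Vmac on the opposite strand, whose counts came to 40.1% of its own.

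Ndufs6, an accessory subunit needed for complex I assembly (chromosome 13, 73319838 to 73328542), had 24, 22.4 and 20.8 CPM in naive and 18.6, 19.7 and 19.6 CPM in crushed controls. Its log2 fold change was -0.22 (SE 0.065, adjusted p = 0.033), without overlap, and the overlapping Mrpl36 had 75.3% of its counts. Ndufv3, a small subunit of the NADH-oxidising module (chromosome 17, 31520115 to 31531331), had 75.4, 79.1 and 70.8 CPM in naive and 63, 67.3 and 68.2 CPM in crushed controls, again without overlap. It fell by 0.18 on the log2 scale (SE 0.057, adjusted p = 0.0395). Ndufc2, a membrane-arm subunit (chromosome 7, 97400003 to 97407802), had 68.1, 57.5 and 59.5 CPM in naive and 56.1, 53.5 and 47.4 CPM in crushed controls. It fell by 0.24 (SE 0.076, adjusted p = 0.0444), and naive control 1 stood above the other naive libraries.

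The number of calls rested on single libraries. Without naive control 1 no nuclear gene was called (edgeR) and the median was -0.07. Without crush control 1, 2 or 3 it was 2, 1 and 1, and without naive control 3 it was 13. Naive control 1 had the highest mean log2 level of the protein-coding nuclear genes (5.16, against 4.93 to 5.00 in the other naive libraries). Its summed skeletal muscle markers were 30.1 CPM, against 4.03 to 12.5 CPM in the other naive libraries, and its summed neuron markers 12603 CPM, against 13024 to 15042. Its fat markers summed to 31.1 CPM, against 8.76 to 15.7. Summed satellite glia markers were 1849 to 1919 CPM in naive and 2007 to 2158 CPM in crushed controls, and of the 5 markers 2 were called higher and 1 lower. Of 4 endothelial and 11 neuron markers 1 each was called lower, none of the markers of the 6 other cell types was called, and the 5 red blood cell markers had a median log2 fold change of -0.40. The part of these differences in the result was not tested.

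In cKO mice, 3 of 89 nuclear genes fell after crush and none rose, where 7.89% of tested genes fell and 10.7% rose. The 3 were Ndufv3, Ndufs7 and Ndufa11, all among the 6 of the controls, and these comparisons share no library. Over all genes, 1102 were called lower in both genotypes, 59.3% of the control calls and 65.7% of the cKO calls. Ndufv3 had 76.8, 75.8 and 75.3 CPM in naive cKO and 62.5, 61.4 and 68.1 CPM after crush, a log2 fold change of -0.25 (SE 0.057, adjusted p = 0.00998). Ndufs7 had 28, 27.5 and 26.5 CPM in naive and 22.4, 25.7 and 23 CPM in crushed cKO. It fell by 0.21 (SE 0.064, adjusted p = 0.0412). Ndufa11 had 25.6, 25.5 and 26.8 CPM in naive and 21, 23.1 and 23.3 CPM in crushed cKO, and fell by 0.21 (SE 0.066, adjusted p = 0.0452). None of the 3 overlapped between groups.

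Ndufs6 and Ndufc2 did not pass in the cKO, with log2 fold changes of -0.17 (SE 0.066) and -0.05 (SE 0.077). Only 1 gene was called without any 1 of the naive cKO libraries, without crush cKO 1 or 3, or without crush control 3. Without naive control 1 the fit called 5 lower and 1 higher. With sex by transcripts as a covariate no gene was called. Of the cell type markers, 2 of 5 red blood cell markers (median -0.93) and 2 of 11 neuron markers (median -0.02) were called lower after crush in cKO, 1 of 5 satellite glia markers was called higher, and none of the other 6 types was called. Red blood cell markers summed to 263 to 427 CPM in naive and 107 to 286 CPM in crushed cKO, and their part in the result was not tested. The median over the nuclear genes was -0.04, against 0.00 over all genes. By complex, the medians in control and cKO mice were -0.16 and -0.07 for complex I, -0.11 and -0.06 for complex II, -0.10 and -0.05 for complex III, -0.11 and 0.00 for complex IV, and -0.07 and 0.00 for complex V.

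The difference between the genotypes' injury responses was tested directly and no member was called by edgeR or DESeq2, with none of 89 nuclear and 13 mitochondrial genes under an unadjusted p of 0.05 and 0% of all genes called. The median difference (cKO minus control) was 0.08 for the nuclear genes and 0.02 without naive control 1. For Ndufc2 it was 0.19 (SE 0.108).

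The 13 mitochondrial mRNAs gave no call after crush in either genotype by edgeR or DESeq2, and none had an unadjusted p under 0.05. Their median log2 fold change was 0.00 in controls and 0.04 in cKO, with single genes from -0.38 to 0.06 and from -0.04 to 0.30. As a share of all counts they took 1.53%, 1.38% and 1.47% in naive and 1.49%, 1.39% and 1.32% in crushed controls. The shares were 1.37%, 1.46% and 1.42% in naive and 1.46%, 1.51% and 1.25% in crushed cKO. The groups overlapped in both genotypes.

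**Figure D2:**
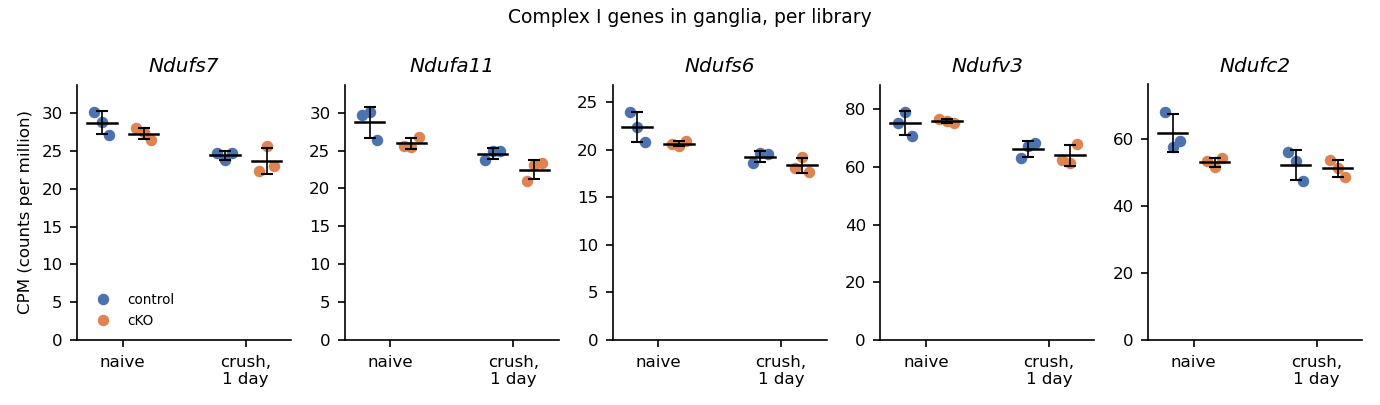
CPM of the 5 complex I genes with the smallest p in the control injury comparison, in naive and crushed ganglia (vertical axes start at 0). Points are libraries and bars mean and SD (n = 3); crushed libraries lie below naive ones in controls for each gene, by 0.18 to 0.24 on the log2 scale.

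**Figure D3:**
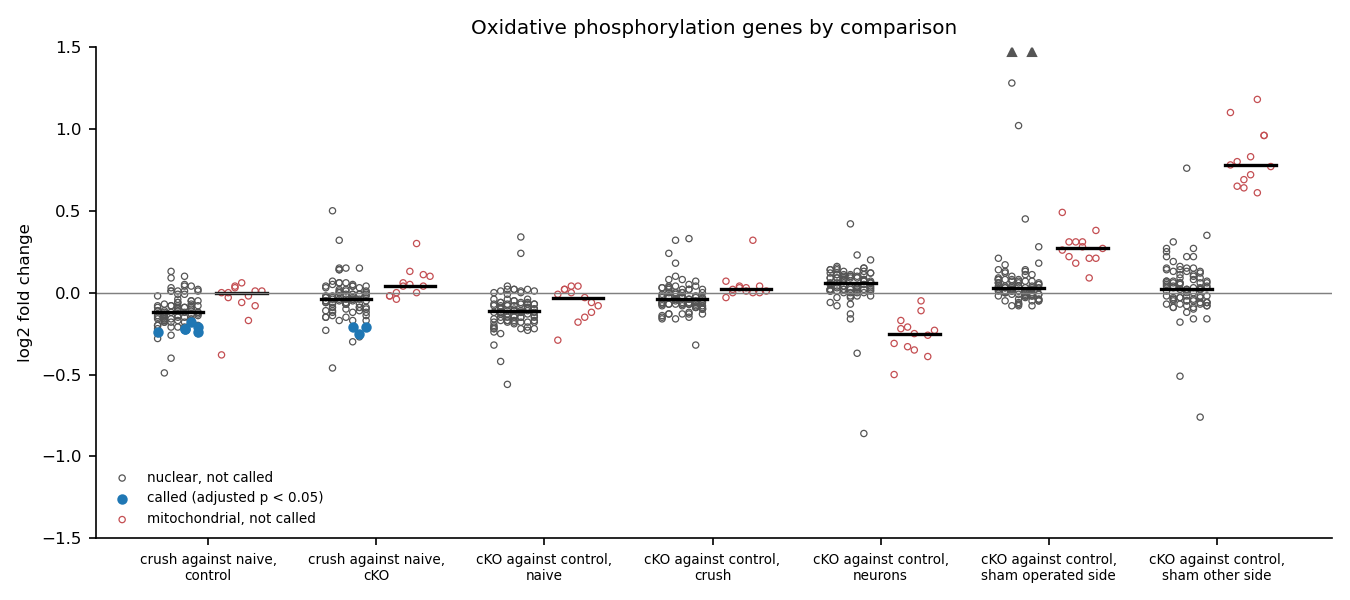
Log2 fold change of each tested nuclear (grey) and mitochondrial (red) gene in 7 comparisons, with the median as a line and called genes in blue; triangles lie beyond the axis. Of these 7 comparisons only those of injury hold called genes, and the mitochondrial mRNAs stand at a median of 0.78 on the other side of sham mice.

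Other genes that serve the same pathway were read from lists of known function. Among 11 regulators of mitochondrial biogenesis, 3 rose and 5 fell in crushed controls, where 12.9% of all genes rose and 8.73% fell. Pprc1, a coactivator of the PGC-1 family, had 26.7, 26.1 and 26.4 CPM in naive and 42.8, 42.4 and 38.8 CPM in crushed controls, a log2 fold change of 0.65 (SE 0.069, adjusted p = 5.64e-05). Esrra, a nuclear receptor that activates respiratory genes, had 50.2, 54.2 and 51.9 CPM in naive and 37.9, 38.1 and 39.4 CPM in crushed controls, and fell by 0.44 (SE 0.052, adjusted p = 0.000128). Pprc1 was higher and Esrra lower in every crushed library than in every naive one of its genotype.

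In cKO mice 3 regulators rose and 3 fell, where 10.7% of all genes rose and 7.89% fell. Esrra fell by 0.32 (SE 0.052, adjusted p = 0.0012). Gabpb1, a subunit of the NRF-2 factor, had 14.3, 15.9 and 14.5 CPM in naive and 20.6, 20 and 21.4 CPM in crushed cKO, and rose by 0.48 (SE 0.062, adjusted p = 0.000269). Of 78 mitochondrial ribosomal proteins, 17 fell and none rose in controls (8.73% and 12.9% of all genes), and 9 fell and 3 rose in cKO, with medians of -0.11 and -0.08. The smallest p was that of Mrps26 in controls (log2 -0.30, SE 0.059), of Mrps5 among those lower in cKO (-0.32, SE 0.058) and of Mrpl9 among those higher there (0.28, SE 0.061). Of 42 assembly factors, 7 fell and 1 (Cox18, log2 0.31, SE 0.090) rose in controls, against 2 and 1 in cKO. Atpaf1, an assembly factor of ATP synthase, led those lower in controls (log2 -0.42, SE 0.078), and of the complex IV factors Coa5 fell (-0.18, SE 0.051) and Coa7 rose (0.29, SE 0.084) in cKO. Of 24 genes of the tricarboxylic acid cycle and pyruvate dehydrogenase, 3 fell in controls and 2 in cKO. Pdk2, a kinase that restrains pyruvate dehydrogenase, fell by 0.50 in controls and by 0.65 in cKO (both SE 0.098, adjusted p = 0.00341 and 0.000703). Of 24 genes of mitochondrial DNA expression, 3 rose and 3 fell in controls and 1 rose and 1 fell in cKO. In controls Mtpap, the mitochondrial poly(A) polymerase, led those higher (log2 0.21, SE 0.057) and Hsd17b10, a subunit of mitochondrial RNase P, those lower (-0.32, SE 0.078). In cKO Pnpt1, an RNA-degrading phosphorylase, rose (0.26, SE 0.070) and Tfb1m, a ribosomal RNA methyltransferase, fell (-0.37, SE 0.086). Of 8 tested subunits and associated factors whose symbols lie outside the rule, 1 (Dmac2, which serves the assembly of complex I) fell, in both genotypes.

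Comparisons of cKO with control ask how the genotypes differ at each state. Loss of the receptor was not checked in any of them. In naive ganglia no member was called by edgeR or DESeq2, and 2 of 21261 genes were called (0.00941%). The nuclear genes had a median of -0.11, against 0.00 over all genes, and 20 of 89 had an unadjusted p under 0.05, against 5.79% of all genes. Of the 89, 21 were lower in every cKO than in every control library and none higher, where 5.32% of all genes were lower and 6.14% higher in that way. These values use the same 3 naive control libraries as the control injury comparison, and without naive control 1 the median was -0.06. No cell type marker was called. Macrophage markers had a median of -0.26, fat -0.32, red blood cells -0.58 and skeletal muscle -1.08, and neuron markers 0.04. The summed markers overlapped between genotypes for all 9 cell types, with red blood cells at 399 to 611 CPM in control and 263 to 427 CPM in cKO. Their part in the result was not tested. Ndufa6, an accessory subunit of complex I, had the smallest p, with a log2 fold change of -0.32 (SE 0.094, adjusted p = 0.754).

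In crushed ganglia no member was called by edgeR or DESeq2, 1 nuclear gene had an unadjusted p under 0.05, the medians were -0.04 (nuclear) and 0.02 (mitochondrial), and 0.00941% of all genes were called. Of the 89 nuclear genes, 2 were higher and 7 lower in every cKO than in every control library, as were 4.16% and 4.56% of all genes. In cultured neurons no member was called by edgeR or DESeq2. Over all genes edgeR called 0%, and DESeq2 called 76 higher and 89 lower. Of the 89 nuclear genes, 3 had an unadjusted p under 0.05 there, and the median was 0.06. In this way 8 were higher in all cKO cultures and 1 lower, against 7.54% and 7.69% of all genes. The smallest p was that of Ndufa4l2, at 0.262, 0.22 and 0.289 CPM in cKO and 0.364, 0.47 and 0.532 CPM in control neurons. Its log2 fold change was -0.86 (SE 0.280, adjusted p = 0.554) and the overlapping Shmt2 had 7330% of its counts.

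The mitochondrial mRNAs had a median of -0.25 in cKO against control neurons, with no call by edgeR or DESeq2 and no unadjusted p under 0.05. Their share of counts was 0.417%, 0.372% and 0.416% in cKO and 0.619%, 0.376% and 0.426% in control neurons. Control 1, the shallowest neuron library, was the high one, and without it the median was 0.06.

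Among the 5 comparisons of genotype, that on the other side of sham mice gave the largest median difference in mitochondrial mRNAs, although no gene passed the threshold. There, opposite to surgery, all 13 were higher in both cKO than in both control libraries, where 19.9% of all tested genes were higher in that way. The 13 were read from the same libraries of 2 mice per genotype and are not 13 separate observations. Their median log2 fold change was 0.78 (range 0.61 to 1.18), against 0.00 over all genes. All 13 had an unadjusted p under 0.05, against 5.23% of all genes, and an adjusted p of 0.88 in edgeR, which called 0% of all genes. DESeq2 called 6 of the 13 higher, where it called 0.108% of all genes higher. Without the filter on low counts edgeR called members higher too, as given at the end.

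As a share of all counts the 13 mRNAs took 0.936% and 0.868% in cKO and 0.519% and 0.629% in controls. For mt-Cytb the values were 1918 and 1809.9 CPM in cKO and 1131 and 1316 CPM in controls (log2 0.61, SE 0.120). For mt-Nd2, a membrane-arm subunit of complex I, they were 769.8 and 662 CPM in cKO and 373 and 452 CPM in controls (log2 0.80, SE 0.150). The mitochondrial ribosomal RNA mt-Rnr2 had 281 and 285 CPM in cKO and 138 and 177 CPM in controls. With any 1 sham library left out the median was 0.60 to 0.99. Where the library was one of these 4, its group was left with 1 library, assumed to vary like the other sham groups, so that the range describes the values and the absence of a call there says little.

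On the operated side of the same mice, the shares were 0.755% and 0.798% in cKO and 0.56% and 0.757% in controls, and these sums overlapped. Of the 13 mRNAs, 5 were higher in both cKO than in both control libraries and none lower, against 17.6% and 15.7% of all genes. The median log2 fold change was 0.27 (range 0.09 to 0.49), with no call by edgeR or DESeq2 and no unadjusted p under 0.05. In the same libraries the nuclear genes had medians of 0.02 on the other side and 0.03 on the operated side. Summed neuron markers on the other side were 15883 and 16956 CPM in cKO and 14675 and 15664 CPM in controls, without overlap. Sums that were lower in both cKO libraries were those of endothelium (55.3 and 69.4 CPM, against 95.7 and 71.3), macrophages (at most 130.2, against at least 132) and fat (7.37 and 12.4, against 38.3 and 15.5). Red blood cell markers overlapped, at 245 and 640.2 CPM in cKO and 583 and 866 CPM in controls. None of the markers in these lists was called, and the part of these cells in the result was not tested. Between the operated and the other side over both genotypes, no member was called by edgeR or DESeq2, and none had an unadjusted p under 0.05. The medians were 0.00 (nuclear) and -0.02 (mitochondrial). Over all genes edgeR called 0.00451%, and DESeq2 called 177 higher and 23 lower. The mitochondrial value averages opposite moves. From the other to the operated side of the same mouse, the summed mRNAs went from 5136 to 5620.2 and from 6289 to 7532 CPM in the control mice. In the cKO mice they went from 9552 to 7525 and from 8704 to 7929.7 CPM. Summed neuron markers moved the same ways, from 14675 to 15448 and from 15664 to 16016 CPM in the control mice. In the cKO mice these markers went from 15883 to 14367 and from 16956 to 14384 CPM. Sums of macrophage, fat and red blood cell markers fell in both control mice and rose in both cKO mice. The part of these cells was not tested. The difference between genotypes in this change of side, a test added after the data were seen, had a median log2 of -0.50 (range -1.09 to -0.38) over the 13 mRNAs and -0.01 over the nuclear genes. No member was called by edgeR or DESeq2, and 2 of 13 and 3 of 90 had an unadjusted p under 0.05. Over all genes edgeR called 0%, and DESeq2 called 12 higher.

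Among the nuclear genes of sham mice none was called on the operated side by edgeR, which called 0.00451% of all genes there. DESeq2 called 1 higher, where it called 0.578% of all genes higher, and in edgeR 3 had an unadjusted p under 0.05. Without overlap between genotypes, 9 of 90 were higher and 6 lower in cKO, against 17.6% and 15.7% of all genes. The 3 with an unadjusted p under 0.05 were the heart and skeletal muscle isoforms of complex IV. Cox6a2 had 0.371 and 13.5 CPM in cKO and 0.205 and 0.201 CPM in controls (chromosome 7, 128205435 to 128206387). Cox8b had 0.185 and 11.9 CPM in cKO and 0.0684 and 0.0892 CPM in controls (chromosome 7, 140898945 to 140900446). Cox7a1, also found in brown fat, had 4.43 and 11.2 CPM in cKO and 3.4 and 3.03 CPM in controls (chromosome 7, 30184144 to 30186078). The high values all came from cKO library 2. Itgad, which overlaps Cox6a2 on the opposite strand, had 134% of its counts.

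Skeletal muscle markers summed to 1768 CPM in that library and to 4.48 to 20.1 CPM in the other 3 of the operated side. Fat markers summed to 64.3 CPM there and to 19.4, 8.33 and 7.05 CPM in the other 3. On the other side the muscle sum was 365 and 25 CPM in cKO and 72.5 and 292 CPM in controls, with Cox6a2 at 1.2, 0.255, 0.512 and 1.59 CPM in the same order. Without cKO library 2 no nuclear gene was called, and without cKO library 1 edgeR called 3. In both fits the cKO group of this side holds 1 library, whose spread is assumed from the other sham groups.

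**Figure D4:**
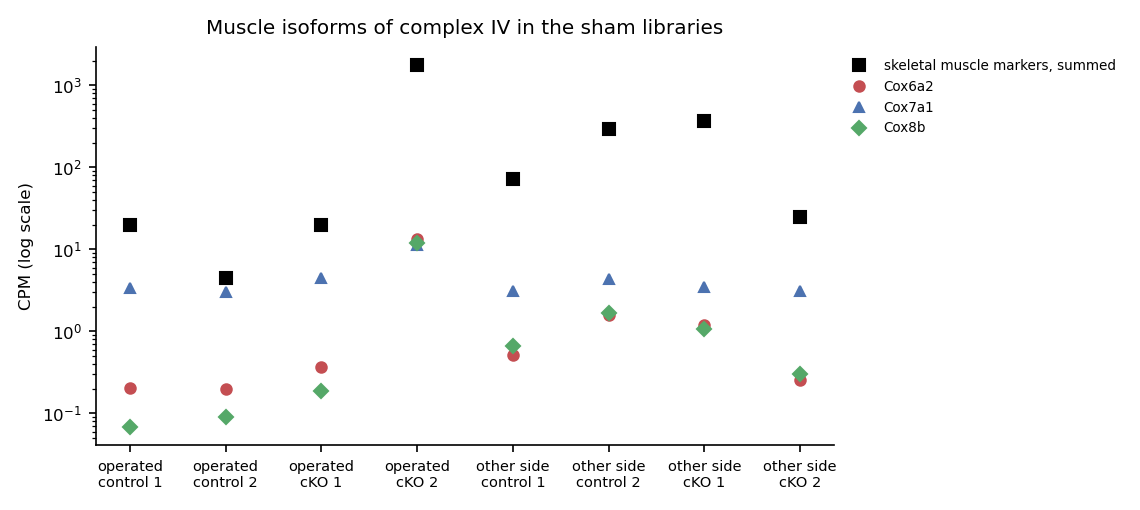
CPM (log scale) of Cox6a2, Cox7a1 and Cox8b and the summed CPM of skeletal muscle markers in each of the 8 sham libraries. The library of cKO mouse 2, operated side, is highest for all 4 (13.5, 11.2, 11.9 and 1768 CPM).

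Cultured neurons were compared with ganglia to see how the genes differ after a day in culture. Within the same count table, against ganglia from the other side of sham mice, 85 of 91 nuclear genes were lower in control neurons and none higher, where 32.6% of all tested genes were lower and 35.2% higher. In cKO, 84 of 91 were lower and none higher, where 30.8% of genes were lower and 33.9% higher. The medians were -0.65 and -0.64, against 0.06 and 0.03 over all genes. Culture, sex, surgery and animals differ together here and cannot be told apart.

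Of 39 tested Nduf genes 38 were called lower in each genotype, with medians of -0.75 in controls and -0.71 in cKO. The medians of complex IV were -0.66 and -0.77, with 16 of 18 lower in each, and those of complex V -0.50 and -0.53, with 18 and 16 of 18 lower, so that the order of complexes differed between genotypes. Ndufb7, an accessory subunit of complex I, had 54.2, 56.6 and 54.8 CPM in control neurons and 102 and 113 CPM in the ganglia, a log2 fold change of -1.03 (SE 0.064, adjusted p = 3.83e-08). Ndufs8, which holds iron-sulfur clusters, had 58.6, 59.6 and 59.1 CPM in neurons and 113 and 117 CPM in ganglia (log2 -1.02, SE 0.069, adjusted p = 7.18e-08). Ndufv3 had a log2 fold change of -0.97 there. Uqcr11, a small subunit of complex III, had 60.8, 52 and 55.6 CPM in neurons and 111 and 129 CPM in ganglia (log2 -1.16, SE 0.099, adjusted p = 5.24e-07). In each of these genes all neuron libraries lay below all ganglion libraries. CPM were scaled separately for neurons and sham ganglia, and the fold changes come from a joint fit.

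Atp5d, a subunit of the central stalk of ATP synthase, had 203, 194 and 209.8 CPM in control neurons and 306 and 322 CPM in ganglia (log2 -0.69, SE 0.060, adjusted p = 5.78e-07). Uqcrb and Uqcrc2, both of complex III, did not pass in cKO, at -0.16 (SE 0.112) and 0.06 (SE 0.099), and Cycs did not pass in controls, at -0.15 (SE 0.106). In cKO the named genes were Ndufb7 (log2 -0.89), Ndufv3 (-0.88), Ndufs8 (-0.85), Ndufb8 (-1.13) and mt-Co2 (-1.66).

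Of the mitochondrial mRNAs, 5 of 13 were called lower in control neurons (mt-Cytb, mt-Co2, mt-Atp8, mt-Co3 and mt-Atp6) and 13 of 13 in cKO neurons, against 32.6% and 30.8% of all genes, with medians of -0.38 and -1.45. Without neuron control 1 the control count was 12. Without neuron control 2 or 3 it was 3, and without sham control 2 it was 2. The difference between genotypes in this comparison was not tested.

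Summed neuron markers were 5899.6 to 7655 CPM in the neuron cultures and 14367 to 16956 CPM in the sham ganglia, and all 11 neuron markers were called lower in the cultures. Summed endothelial markers were 770.5 to 1199.7 CPM in the cultures and 55.3 to 95.7 CPM in the sham ganglia, and Schwann cell markers 859 to 1066 and 3027 to 5081 CPM. The part of the cells in the result was not tested.

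Against naive ganglia, which lie in the other table, the direction was the opposite. In controls 63 of 90 nuclear genes were called higher in neurons and 18 lower, where 41.7% and 41.6% of all genes were called, and in cKO 69 and 14, where 42% and 40.1% were. The medians were 0.62 and 0.75. Atp5g2 (log2 5.84), Atp5l (5.20), Ndufb4 (2.81), Cox5b (2.86) and Ndufs3 (1.89) led in controls and share 21.8% to 68.5% of their 50-base stretches with other transcripts, and within the same table each was lower in neurons (log2 -0.33, -0.42, -0.73, -0.74 and -0.73). The lower calls were led by 2 pseudogene entries, Cox6c2 (log2 -4.30) and Ndufs6b (-3.25), with mt-Cytb (-1.83), Atp5s (-1.44), which encodes a coupling factor of ATP synthase, and Uqcrfs1 (-0.78), the Rieske iron-sulfur subunit of complex III. These 5 were also lower within the same table (-0.66, -0.61, -0.85, -0.53 and -0.43). In cKO, Atp5g2 (log2 6.30), Atp5l (5.20), Ndufb4 (3.03), Ndufs3 (2.20) and Cox5b (2.97) led the higher calls, and Cox6c2 (-4.04), Ndufs6b (-3.26), mt-Cytb (-1.90), Atp5s (-1.33) and mt-Nd5 (-1.67) the lower ones. The mitochondrial mRNAs were called lower in 9 of 13 and higher in 1 of 13 in each genotype.

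**Figure D5:**
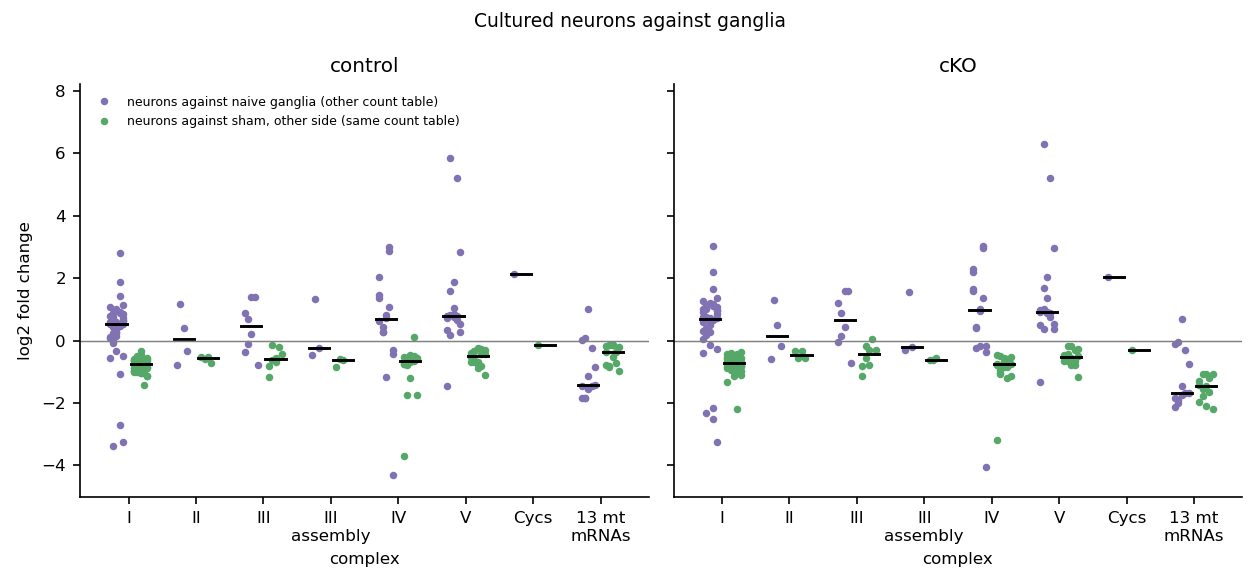
Log2 fold change of each member in cultured neurons against naive ganglia of the other table (purple) and against ganglia from the unoperated side of sham mice in the same table (green), by complex, for controls (left) and cKO (right). Lines are medians; over the nuclear genes they are 0.62 and -0.65 in controls.

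Promoters were searched for 3 short motifs of factors known to act on respiratory genes, from 250 bases before to 50 after the RefSeq start (GRCm38.p6), on both strands. Of the 89 protein-coding nuclear members, 72 were matched to a promoter, by Ensembl id or else by symbol or synonym. The NRF1 motif (the letters GCGCA, any base, then GCGC) was in 18 of the 72 (25%) and in 5.19% of 27025 genes. The YY1 motif (AAGATGGCG) was in 9.72% of the members and 1.64% of all genes, and the GABPA motif (CCGGAAGTG) in 2.78% and 2.25%. The 27025 genes were not matched to the members in expression, gene type or base content. Letters in a window are a description and not evidence of binding. Among the matched complex I genes called after crush in controls, Ndufa11 holds the NRF1 letters wholly before its start. It is printed with Cox6a1, a leading gene by level, and Sdha and Sdhd of complex II, with the motif in capitals.
Ndufa11 (chr17:56717677-56717736, + strand): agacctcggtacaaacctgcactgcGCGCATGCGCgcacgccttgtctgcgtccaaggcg
Cox6a1 (chr5:115349041-115349100, - strand): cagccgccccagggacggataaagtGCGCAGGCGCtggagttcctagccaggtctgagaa
Sdha (chr13:74350261-74350320, - strand): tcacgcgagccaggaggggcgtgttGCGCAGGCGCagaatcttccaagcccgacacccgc
Sdhd (chr9:50603894-50603953, - strand): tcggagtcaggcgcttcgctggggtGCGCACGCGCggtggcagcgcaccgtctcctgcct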

How the data were processed

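The authors deposited 2 tables of raw counts per gene, 1 for naive and crushed ganglia and 1 for sham ganglia and neurons, each with FPKM. Per the submitters' processing notes, reads were handled with Trim Galore, HISAT2 and featureCounts on mm10; versions, strand and multiple-match settings are not given in the sources used here. The deposited FPKM divide by the gene span with introns: the implied length was the GENCODE M21 span within 0.1% for 99.2% of 26490 genes. Counts are therefore taken to cover introns. How reads over overlapping genes were counted is not given. FPKM were used only for that check.

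Counts were tested with edgeR 4.0.16 in R 4.3.3 (filterByExpr, minimum count 10 and total 15, TMM, quasi-likelihood test, Benjamini-Hochberg over all genes, called under 0.05, two-sided). Naive and crushed libraries (21261 genes), neurons (23295) and sham ganglia (22160) were fitted separately. Neurons were also fitted with naive ganglia (22185) and, added after seeing the data, with sham ganglia (24192). CPM are TMM-scaled, and n is libraries; p-values measure the spread between these mice or cultures, and both sides of a sham mouse are 1 animal. The precision of a count is limited by depth. Members, lists, markers and the naming rule were chosen with earlier results of these data known. Named are all calls of a comparison where these number at most 5, else the 5 of smallest p per direction, the isoform sets, and the leading gene of each related list; Ndufa6, mt-Nd2, Uqcrb, Uqcrc2, Cycs and the single promoters were chosen after their values were seen.

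In simulated counts, the test for injury in controls (21261 genes) recovered 0% of genes changed 1.2-fold, 64% at 1.5-fold and 98% at 2-fold. For the other side of sham mice (22160 genes) it recovered 16% at 1.5-fold and 68% at 2-fold. Every gene was given the same spread there, and 50 genes were changed at each fold. In the real injury comparison 2744 genes were called higher and 1857 lower, which makes its threshold on p less strict. The recovery at 1.2-fold therefore does not describe the smaller changes called after crush. Alternatives were DESeq2 1.42.0, RLE factors, library totals, no filter, each library left out, a replicate block, sex by transcripts, and both libraries of mismatched sex left out. Deviations of same-numbered naive and crushed libraries correlated at -0.417 to 0.411, so their numbers do not pair them. The 2 sides of a sham mouse are paired by the animal. The main sham fit held no term for the mouse, so its tests of side treat the 2 sides as separate libraries. A block for the mouse was an alternative only.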

Additional observations from a re-analysis of the deposited data

Results flagged for a closer look

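Over 45 levels and sums compared between cKO and control in 5 settings (450 pairs of settings), 7 had every cKO library on one side of the controls in 1 setting and on the opposite side in another. This is 1.56% of the pairs, against 2.1% over all genes tested in both settings. None of these differences between settings was tested, and none of the genes was called between cKO and control by edgeR in either setting. Each difference is given as the log2 ratio of cKO to control means in the first setting minus that in the second.

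For Cox7a2l, a factor of supercomplex assembly, the means were 143 CPM in cKO and 156 CPM in control naive ganglia and 169 and 155 CPM on the unoperated side of sham mice (-0.256). For Cox8a, in the same settings, they were 166 and 179 CPM and 222 and 218 CPM (-0.137). For Ndufa4 they were 84.9 and 98.5 CPM and 243 and 219 CPM (-0.368), and for Ndufc2 53.1 and 61.7 CPM and 92.8 and 74.7 CPM (-0.53). All 4 use the naive controls and are set across tables.

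For Ndufa11 the means were 22.5 CPM in cKO and 24.6 CPM in control crushed ganglia and 54.2 and 46.1 CPM in neurons (-0.365). This pair is also set across tables. For Ndufs7 they were 57.8 and 50.1 CPM in neurons and 88.2 and 98.6 CPM on the unoperated side (0.367). For Ndufa4l2, which overlaps Shmt2, they were 0.257 and 0.455 CPM in neurons and 1.08 and 0.957 CPM on the operated side (-0.998).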

How the results depend on the processing

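The nuclear genes called lower after crush in controls (6) numbered 10 with DESeq2, 10 with RLE factors, 31 with library totals, 1 without a filter, 1 without both libraries of mismatched sex, and 4 with a replicate block. Leaving out each library in turn gave 0 to 13. In cKO (3) the number was 1 with DESeq2, without a filter, without both libraries of mismatched sex and with the replicate block, and 0 with sex by transcripts as a covariate. Leaving out single libraries gave 1 to 5 lower and 0 to 1 higher. The causes were not tested. Library totals moved the median of all genes by -0.07 in the control comparison. In controls, calls were lost under 2 of 19 alternatives for Ndufs7, 7 for Ndufa11, 8 for Ndufs6, 8 for Ndufv3, 9 for Ndufc2, 6 for Cox18 and 7 for Mtpap. In cKO they were lost under 10 for Ndufs7, 12 for Ndufa11, 2 for Ndufv3, 8 for Coa7, 7 for Coa5, 7 for Pnpt1, 2 for Tfb1m, 1 for Mrpl9 and 1 for Dmac2. The direction was kept in each.

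On the operated side of sham mice the nuclear genes called higher in cKO (0) were 1 with DESeq2, 3 without a filter, and 0 to 3 with single libraries left out. On the other side the mitochondrial mRNAs called higher (0) were 6 with DESeq2 and 12 without a filter. With 2 mice per genotype, the test recovered 16% of genes changed 1.5-fold in simulated counts for the other side.

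With the other side of sham mice in place of naive ganglia, the nuclear genes called higher in neurons were 0 in both genotypes and those called lower 85 in control and 84 in cKO. The mitochondrial mRNAs were 0 higher in both genotypes and, in controls, 5 lower. The named genes that turned direction were, in control and cKO, Atp5g2 (-0.33 and -0.19), Atp5l (-0.42 and -0.64), Ndufb4 (-0.73 and -0.85), Cox5b (-0.74 and -0.79) and Ndufs3 (-0.73 and -0.54). The 1 mitochondrial mRNA called higher against naive ganglia in cKO was lost (0) with DESeq2, library totals and the 2 groups alone, with 0 to 1 over single libraries left out.

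Neurons against the same table gave 2 to 12 mitochondrial mRNAs lower in controls over single libraries left out. Between the tables, the mitochondrial mRNAs called higher in sham controls (4) were 2 with library totals and 2 with the replicate block, and 2 to 4 over single libraries; in cKO those called lower (7) were 4 to 7. Library totals moved the median of all genes by -0.13 in control neurons against naive ganglia and by -0.20 between the tables.

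The replicate block changed no other count by over 1.5 times. Same-numbered neuron libraries correlated at 0.0642 to 0.221. Crossing the numbers of the cKO sham mice between sides (correlation -0.159 as labelled) left 0 members called. The change of side between genotypes had 2 nuclear genes called higher without a filter and 0 to 1 with single libraries or mice left out, and 0 members called with the mouse block (mitochondrial median -0.48). In all, 1042 of the counts of calls under the alternatives stayed within 1.5 times and 54 did not.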
